A study of Mus musculus with 11 samples.

Results

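The genes described here are the non-collagen part of the extracellular matrix and the enzymes that build and remodel it, from adhesive glycoproteins to proteases and their inhibitors. The list of 49 genes was drawn up by name and function, with no threshold on a measured value but with earlier results of these data known, and the rows of the count table with these gene symbols were taken. The table held 39 of the 49 among its 13669 genes, and all 39 passed the filter on low counts (over 10 reads in 5 livers or more), as did 13334 genes in total. *Tnc*, *Thbs2*, *Fbln1*, *Fbln2*, *Efemp2*, *Mfap4*, *Fmod*, *Vcan*, *Lox* and *Timp1* were not analysed here.

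The data are liver RNA-sequencing of 11 wild-type C57BL/6J male mice on regular chow, all of which carried a recombinant adeno-associated virus (rAAV). In 6 of them the virus expressed a tough decoy inhibitor (AAV-TuD), a hairpin RNA that offers binding sites to *miR-379* and *miR-541*, and in the other 5 a negative control sequence (AAV-NC). In both groups a liver-specific promoter drove expression in hepatocytes, whereas the RNA came from whole liver with all of its cell types. The ages of these animals and the time since the virus are not given in the labels, which number the libraries and name no shared batch or litter, so p values measure the spread between these liver samples.

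The matrix around liver cells is a mesh of collagens held together by adhesive glycoproteins, elastic fibres, proteoglycans and basement membrane proteins. Most of these proteins are known as products of hepatic stellate cells and portal fibroblasts, while hepatocytes secrete fibronectin and vitronectin into plasma. Collagen chains are hydroxylated, folded and cut inside and outside the cell, crosslinked by lysyl oxidases, and broken down by metalloproteinases that tissue inhibitors of metalloproteinases (TIMPs) hold in check.

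The sequences of *miR-379* and *miR-541*, and of the sites that match them, show where these targets of the decoy could meet the list. The paper reports that the decoy also lowered further miRNAs encoded in the same cluster. Sites for those were not searched here. Mature sequences are from RefSeq on GRCm38.p6, 5′ to 3′, with the seed (bases 2 to 8) in capitals.
mmu-miR-379-5p, chr12:109709065-109709085, + strand: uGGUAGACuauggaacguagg
mmu-miR-541-5p, chr12:109742422-109742446, + strand: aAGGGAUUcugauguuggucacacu
The complement of each seed was searched in the longest annotated 3′ untranslated region (UTR) of each gene (GENCODE M21, GRCm38), and 4 of the 39 genes held a match. The 30 bases around each match are given as the transcript reads, with the match in capitals.
*Loxl1*, site for *miR-379*, match at chr9:58288118-58288124, - strand: agagtgggaaagGTCTACCttcccaaagag
*Fbln5*, site for *miR-541*, match at chr12:101749623-101749629, - strand: agaacatactcaAATCCCTgtaaaccagtg
*Fbln5*, site for *miR-541*, match at chr12:101748663-101748669, - strand: gagaaagggacaAATCCCTtcagctaggct
*Loxl2*, site for *miR-541*, match at chr14:69693157-69693163, + strand: gctcatgcctgtAATCCCTgcactcatgct
*Timp3*, site for *miR-541*, match at chr10:86348037-86348043, + strand: cgggccattctcAATCCCTggtaatcacct
A *miR-379* match was present in 1 of the 39 genes (2.56%), against 5.19% of the 10922 tested genes with an annotated UTR, and a *miR-541* match in 3 (7.69%), against 8.95%. Of the 18 genes that rose, 1 held a *miR-379* match and 2 a *miR-541* match. The UTRs of the 39 genes had a median length of 992 bases, against 1214 for all tested genes. A match is a description of the letters and not of binding.

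Of the 39 genes, 18 rose with AAV-TuD, none fell and 21 did not pass the test. The test was edgeR's quasi-likelihood test at an adjusted p value (Benjamini-Hochberg over all 13334 genes) under 0.05, by which 7.24% of all genes tested were higher and 4.33% lower. Higher genes were found in each of the 7 classes of the list. The median log2 fold change, taken as AAV-TuD over AAV-NC throughout, was 0.76 over the 39 genes and -0.0024 over all genes tested, and 33 of the 39 values were above 0. Of the 6 genes with values below 0, 1 (*Fn1*) had an unadjusted p value under 0.05 in edgeR, and DESeq2 called 0 lower. All 6 AAV-TuD livers lay above all 5 AAV-NC livers for 9 of the 39 genes, against 4.11% of all genes tested. Many of these genes were measured with few reads. Among the 20 whose mean was 50 reads or more, 8 were higher (40.0%), with a median of 0.46, against 6.25% of all genes at that depth. *Loxl1* and *Mmp2* passed the filter with no AAV-NC liver above 10 reads, so their entry into the test came from the group in which they were high. Of the other 37 genes, 16 were higher. Those include *Eln* and *Plod2*, each with only 1 AAV-NC liver above 10 reads, so their entry also rested on the AAV-TuD livers.

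**Figure D1:**
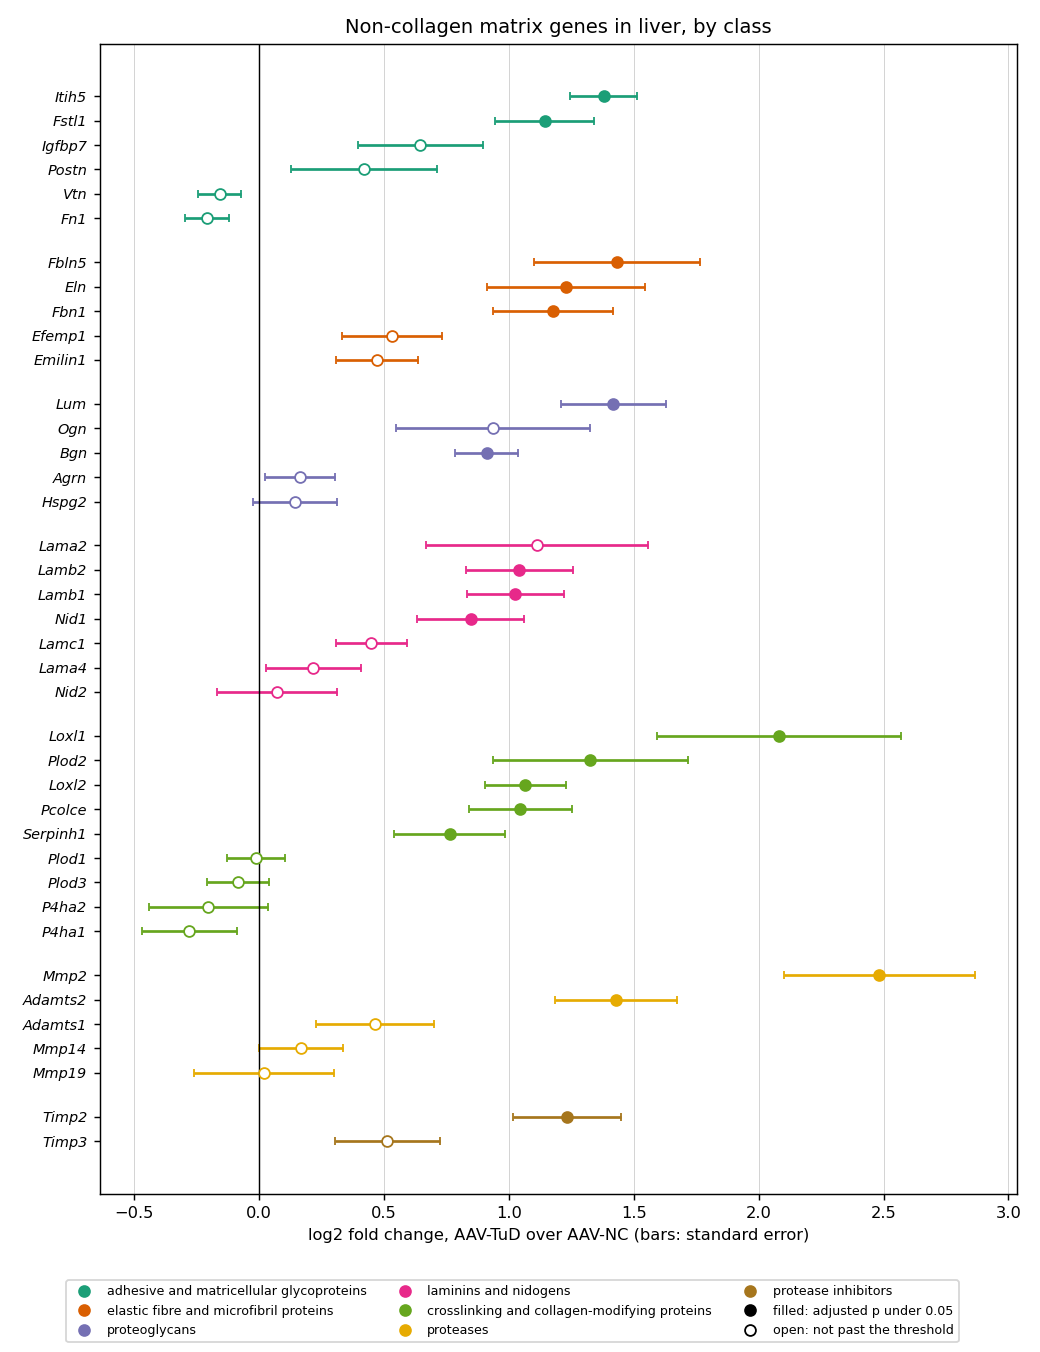
The log2 fold change of each of the 39 genes (AAV-TuD over AAV-NC, x axis) is plotted by class with its standard error, with filled points for genes past the threshold and open points for the others. The 18 filled points lie between 0.76 (*Serpinh1*) and 2.48 (*Mmp2*), and the open points between -0.28 (*P4ha1*) and 1.11 (*Lama2*).

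Read totals per liver lay between 8148531 and 12043959. Major urinary protein (*Mup*) transcripts made up 40.2% of the reads in AAV-NC liver 7, 32.3% in AAV-TuD liver 3 and 29.6% in AAV-TuD liver 5, and between 8.58% and 19.5% in the others, so values are given as CPM on library sizes scaled by TMM, a method that sets aside the genes that differ most. Without these 3 livers, 17 of the 18 genes were still higher. Scaling by library size alone moved the median over all genes to 0.23 (log2), and all 18 genes were higher under that scaling too. Higher calls over all genes tested then went from 966 to 1386. Values of the AAV-NC livers are listed in the order 1, 2, 6, 7 and 8, and gene positions are those of GENCODE M21 on GRCm38.

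Among adhesive and matricellular glycoproteins, 2 of 6 genes rose. *Itih5* (chr2:10153571-10256529, + strand), whose product binds hyaluronan and stabilises the matrix, stood at 11.6, 11.8, 18.2, 12.3 and 14.3 CPM in the AAV-NC livers. In the AAV-TuD livers it ranged from 26.6 to 40.7 CPM with a median of 36.9. The lowest AAV-TuD liver, number 3, was thus above the highest AAV-NC liver, number 6, and the 2.60-fold rise had a log2 fold change of 1.38 ± 0.13 (SE), adjusted p = 3.57e-05. *Fstl1* (chr16:37776873-37836514, + strand) encodes a secreted glycoprotein related to follistatin and SPARC. It was counted at 3.94, 4.78, 3.10, 2.88 and 3.80 CPM with AAV-NC, and at 4.67 to 10.9 CPM (median 8.28) with AAV-TuD. Only AAV-TuD liver 5 fell inside the AAV-NC range, just under AAV-NC liver 2, and the change was 2.21-fold (log2 1.14 ± 0.20 (SE), adjusted p = 0.0026).

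The plasma glycoproteins of this class did not pass the test in either direction. Fibronectin, *Fn1* (chr1:71585520-71653200, - strand), which links cells to collagen through integrins, gave 341, 326, 331, 296 and 272 CPM in the AAV-NC livers and 220 to 296 CPM (median 277) in the AAV-TuD livers. The groups overlapped, and the log2 fold change was -0.21 ± 0.09 (SE), adjusted p = 0.138. Vitronectin, *Vtn* (chr11:78499091-78502324, + strand), an adhesive protein of plasma, gave 594, 594, 550, 596 and 703 CPM and, with AAV-TuD, 490 to 630 CPM (median 523). Its log2 fold change of -0.16 did not pass the test either (adjusted p = 0.263). *Postn*, a matricellular protein of healing tissue, had a log2 fold change of 0.42, and *Igfbp7*, an insulin-like growth factor binding protein found in vessel walls, of 0.65 (adjusted p = 0.108). Without AAV-TuD liver 10, which held the lowest *Igfbp7* value of its group, *Igfbp7* passed the threshold (log2 fold change 0.80, adjusted p = 0.0172).

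Of the elastic fibre and microfibril proteins, 3 of 5 rose, namely *Fbn1*, *Fbln5* and *Eln*. Of these, *Eln* entered the test through the AAV-TuD livers. *Fbn1* (chr2:125300594-125507993, - strand), fibrillin-1 of the microfibrils, was at 0.836, 1.38, 1.66, 1.75 and 1.85 CPM with AAV-NC. With AAV-TuD it was at 2.44 to 4.36 CPM, median 3.60. No liver of one group reached into the other, and the log2 fold change was 1.18 ± 0.24 (SE), adjusted p = 0.00601. *Fbln5* (chr12:101746565-101819055, - strand), which ties elastin to microfibrils and cell surfaces and whose *miR-541* matches are among those shown above, had 1.67, 1.38, 2.32, 0.376 and 0.973 CPM in the controls and 1.91 to 5.18 CPM (median 3.60) in the AAV-TuD livers. AAV-TuD liver 5 lay under AAV-NC liver 6, at a log2 fold change of 1.43 ± 0.33 (SE), adjusted p = 0.0118. Elastin itself, *Eln* (chr5:134702593-134747323, - strand), gave 0.836, 0.504, 1.33, 0.751 and 0.876 CPM, or between 4 and 12 reads, in the AAV-NC livers, and 0.939 to 2.82 CPM (median 2.12), or 10 to 31 reads, in the AAV-TuD livers. The lowest of these, liver 3, was under AAV-NC liver 6, and the log2 fold change of 1.23 ± 0.32 (SE), adjusted p = 0.0201, passed the threshold in the full set but not without AAV-NC liver 2 (adjusted p = 0.0502). *Efemp1*, a fibulin, and *Emilin1*, a glycoprotein at the elastin and microfibril interface, had log2 fold changes of 0.53 and 0.47 and did not pass (adjusted p = 0.100 and 0.0754). *Emilin1* passed without AAV-TuD liver 3 (adjusted p = 0.0443).

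**Figure D2:**
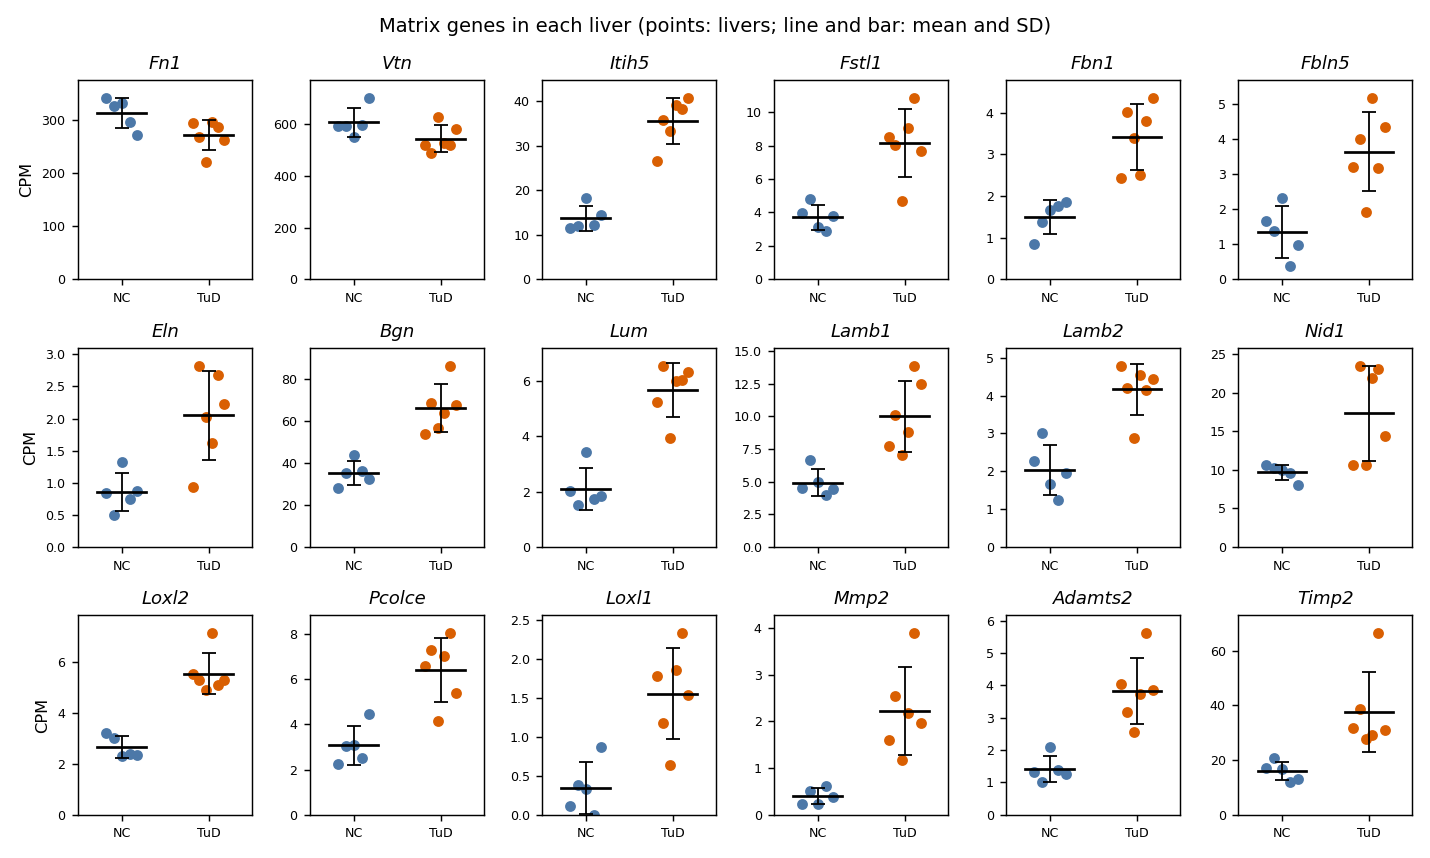
CPM of 18 genes is plotted for each liver (points), with the mean (line) and SD (bar) of the 5 AAV-NC and 6 AAV-TuD livers, each panel from 0 on its own linear axis. *Itih5*, *Fbn1*, *Bgn*, *Lum*, *Lamb1*, *Loxl2*, *Mmp2*, *Adamts2* and *Timp2* have no overlap between groups, while *Fn1* and *Vtn* overlap.

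Of the proteoglycans, the small leucine-rich proteins *Bgn* and *Lum* rose, 2 of 5 genes. Biglycan, *Bgn* (chrX:73483602-73495933, + strand), which binds collagen fibrils and transforming growth factor beta, stood at 27.9, 35.5, 43.7, 36.2 and 32.6 CPM in the AAV-NC livers and at 53.9 to 86.4 CPM (median 65.6) in the AAV-TuD livers. Every AAV-TuD liver exceeded every AAV-NC liver, at a log2 fold change of 0.91 ± 0.13 (SE), adjusted p = 0.000552. Lumican, *Lum* (chr10:97565128-97572703, + strand), which spaces collagen fibrils, rose from 2.03, 1.51, 3.43, 1.75 and 1.85 CPM to 3.93 to 6.56 CPM (median 6.01), again with no overlap (log2 1.42 ± 0.21 (SE), adjusted p = 0.001). The related *Ogn* (osteoglycin) had a log2 fold change of 0.94, with values spread enough that the adjusted p value was 0.134. The large heparan sulphate proteoglycans of basement membranes had smaller values, with log2 fold changes of 0.14 for *Hspg2* (perlecan) and 0.16 for *Agrn* (agrin), and neither passed the test.

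Laminins are trimers of an alpha, a beta and a gamma chain, and nidogens bridge them to type IV collagen in the basement membrane. Both beta chains rose, the alpha and gamma chains of the list did not pass the test, and of the nidogens *Nid1* rose, which makes 3 of 7 genes. *Lamb1* (chr12:31265234-31329644, + strand) was at 4.54, 6.67, 4.98, 4.01 and 4.48 CPM with AAV-NC and at 7.01 to 13.9 CPM (median 9.47) with AAV-TuD. The groups did not overlap, and the log2 fold change was 1.03 ± 0.19 (SE), adjusted p = 0.00385. *Lamb2* (chr9:108479736-108490530, + strand) gave 2.27, 3.02, 1.66, 1.25 and 1.95 CPM in the controls and 2.87 to 4.79 CPM (median 4.32) with AAV-TuD. AAV-TuD liver 5 alone was under the highest control, liver 2, at a log2 fold change of 1.04 ± 0.21 (SE), adjusted p = 0.00643. *Nid1* (chr13:13437551-13512269, + strand) was counted at 10.6, 10.2, 9.96, 9.64 and 8.08 CPM in the AAV-NC livers, a narrow range, and at 10.6 to 23.5 CPM (median 18.2) in the AAV-TuD livers, where livers 3 and 5 sat at the level of the controls. Its log2 fold change was 0.85 ± 0.21 (SE), adjusted p = 0.0184. Of the chains that did not pass, *Lamc1* had a log2 fold change of 0.45 (adjusted p = 0.0522), *Lama2* of 1.11 and *Lama4* of 0.22, and *Nid2* had 0.07. In AAV-TuD liver 5, *Lama2*, *Lamb2* and *Lamc1* each had the lowest value of the group, and without that liver *Lamc1* (adjusted p = 0.0103) and *Lama2* (adjusted p = 0.0486) passed the threshold.

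Of the crosslinking and collagen-modifying proteins, 5 of 9 rose, a count that includes *Loxl1* and *Plod2*, which entered the test through the AAV-TuD livers. Both lysyl oxidase-like enzymes measured, which crosslink collagen and elastin outside the cell, rose. *Loxl2* (chr14:69609068-69695834, + strand) was at 3.22, 3.02, 2.32, 2.38 and 2.34 CPM with AAV-NC and at 4.89 to 7.12 CPM (median 5.29) with AAV-TuD, without overlap and at a log2 fold change of 1.07 ± 0.16 (SE), adjusted p = 0.00109. The last 500 bases of its transcript share stretches of up to 202 bases, at least 95% identical, with 123 other genes, so that its reads are uncertain. *Loxl1* (chr9:58287738-58313186, - strand), with the *miR-379* match shown above, had 0.119, 0.378, 0.332, 0 and 0.876 CPM in the AAV-NC livers, which is 1, 3, 3, 0 and 9 reads. In the AAV-TuD livers it had 0.637 to 2.33 CPM (median 1.66), or 6 to 27 reads. AAV-TuD liver 5 was below AAV-NC liver 8, and the log2 fold change was 2.08 ± 0.49 (SE), adjusted p = 0.0127. Without AAV-NC liver 8 the log2 fold change was 2.84. *Pcolce* (chr5:137605103-137613784, - strand), the enhancer of procollagen C-proteinase, gave 2.27, 3.02, 3.10, 2.5 and 4.48 CPM and rose to 4.14 to 8.02 CPM (median 6.81), with only AAV-TuD liver 5 under the highest control (log2 1.05 ± 0.21 (SE), adjusted p = 0.00498).

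The intracellular collagen enzymes were mixed. *Plod2*, a lysyl hydroxylase of collagen telopeptides, rose with a log2 fold change of 1.33 ± 0.39 (SE), adjusted p = 0.0389, from 0.607 ± 0.472 to 1.51 ± 0.347 CPM (mean ± SD). *Serpinh1*, the collagen chaperone HSP47, rose from 3.81 ± 1.63 to 6.44 ± 0.601 CPM (mean ± SD), a log2 fold change of 0.76 ± 0.22 (SE), adjusted p = 0.0363. Neither call was firm. *Plod2* lost it without any 1 of AAV-NC livers 1, 7 and 8 and AAV-TuD livers 9, 10 and 11 (adjusted p between 0.0703 and 0.0925), and without the 3 *Mup*-rich livers together (0.100). *Serpinh1* lost it without any 1 of AAV-NC livers 1, 2 and 8 and AAV-TuD livers 4, 5, 9, 10 and 11 (adjusted p between 0.0536 and 0.0850). The other lysyl hydroxylases, *Plod1* and *Plod3*, had log2 fold changes of -0.01 and -0.08, and the prolyl hydroxylase subunits *P4ha1* and *P4ha2* of -0.28 and -0.20, and none of these passed the test.

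Of the proteases, 2 of 5 rose, a count that includes *Mmp2*, which entered the test through the AAV-TuD livers. *Mmp2* (chr8:92827291-92853420, + strand), gelatinase A, which degrades denatured collagen and type IV collagen, had 0.239, 0.504, 0.221, 0.626 and 0.389 CPM in the AAV-NC livers, or between 2 and 5 reads. With AAV-TuD it had 1.17 to 3.88 CPM (median 2.08), or 11 to 45 reads. The groups were apart, and the 5.59-fold rise was the largest in the list by the fitted value (log2 2.48 ± 0.38 (SE), adjusted p = 0.00116), although at these counts its size is imprecise. *Adamts2* (chr11:50602084-50807573, + strand), the procollagen N-proteinase, was at 1.31, 1.01, 2.10, 1.38 and 1.27 CPM and rose to 2.55 to 5.61 CPM (median 3.79), also without overlap (log2 1.43 ± 0.24 (SE), adjusted p = 0.00223). *Mmp14*, the membrane-bound activator of pro-MMP2, had a log2 fold change of 0.17, *Mmp19* of 0.02 and *Adamts1*, which cleaves large proteoglycans, of 0.46, and these did not pass.

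Of the protease inhibitors, *Timp2* (chr11:118301069-118355740, - strand), which inhibits MMP2 and also takes part in its activation by MMP14, rose, 1 of 2 genes. It stood at 17.2, 20.6, 16.7, 12.1 and 13.2 CPM with AAV-NC and at 27.6 to 66.2 CPM (median 31.4) with AAV-TuD. All AAV-TuD livers exceeded all controls, with liver 10 far above the others of its group, and the log2 fold change was 1.23 ± 0.22 (SE), adjusted p = 0.00277. *Timp3*, the inhibitor that binds to the matrix, had a log2 fold change of 0.51 (adjusted p = 0.127), which passed without AAV-TuD liver 10 (adjusted p = 0.0329). Reads of *Timp3* cannot be told from those of *Syn3*, which shares 1733 exon bases on the other strand, since the strand setting of the counting is not given in the sources used here. Exon bases are also shared on the other strand by *Fbn1* with *Gm9913* (2442 bases), *Mmp19* with *Tmem198b* (789), *Lama2* with *Gm48084* (631), *Plod3* with *Znhit1* (529) and *Nid2* with *Rtraf* (437). *Timp3*, *Mmp19*, *Lama2* and *Nid2* share a stretch of 100 bases or more with another gene in the last 500 bases of the transcript compared. No such stretch was found for *Fbn1* and *Plod3*, so less of their 3′ reads may be affected. Others had shorter overlaps, and *Pcolce* shares 112 bases with *Fbxo24* on the same strand.

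**Figure D3:**
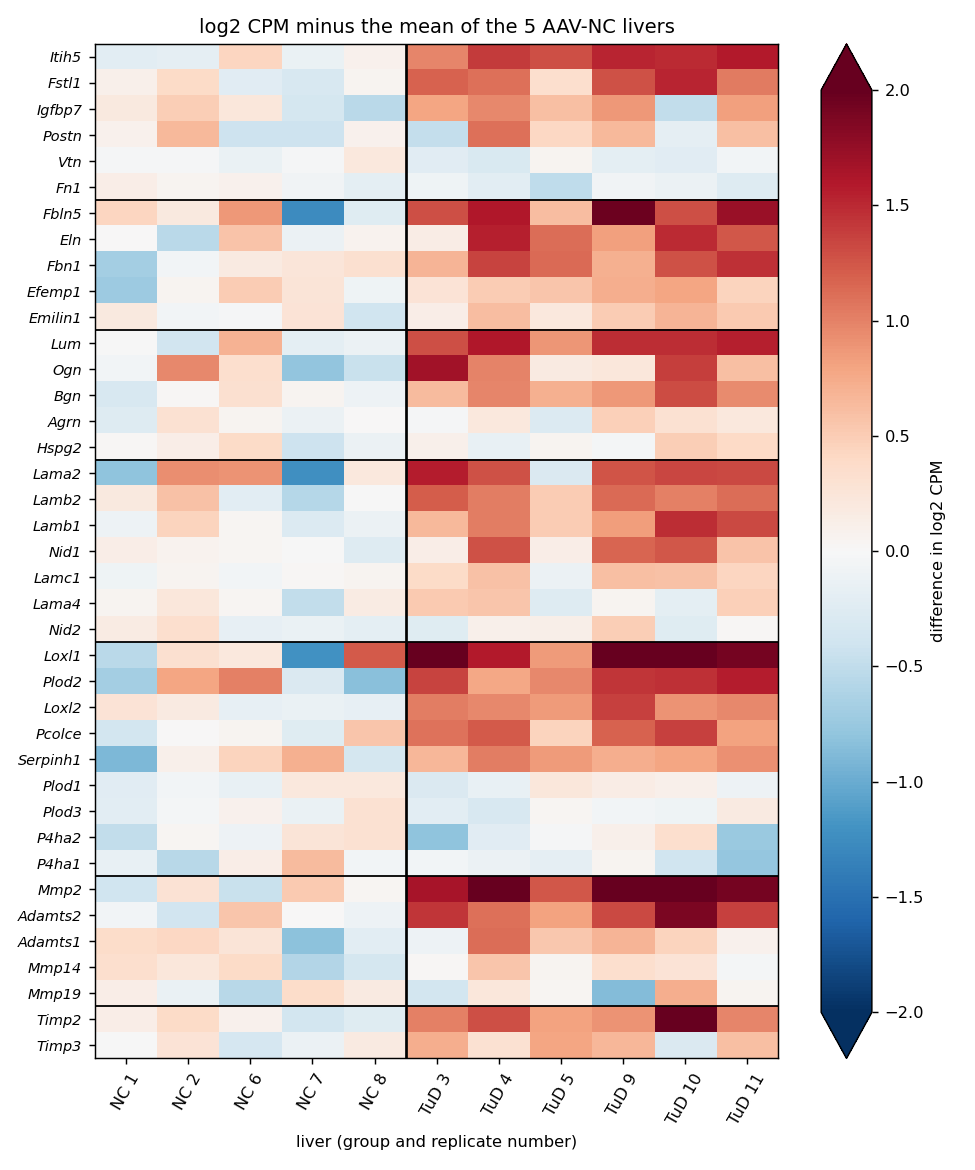
Each cell shows the log2 CPM (prior count of 2) of a gene in a liver minus the mean of the 5 AAV-NC livers, with rows grouped by class and colours ending at -2 and 2. Over the 18 higher genes the median difference runs from 0.83 in AAV-TuD liver 5 to 1.47 in AAV-TuD liver 10, and over the 21 others from -0.03 to 0.34 in the AAV-TuD livers.

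The 6 AAV-TuD livers did not carry the rise equally. As a description of the 18 genes chosen by the same values, the median log2 difference from the AAV-NC mean was 1.05 in liver 3, 1.25 in liver 4, 0.83 in liver 5, 1.23 in liver 9, 1.47 in liver 10 and 1.28 in liver 11, while the AAV-NC livers lay between -0.16 and 0.19. Liver 5 held the lowest AAV-TuD value for 11 of the 18 genes, liver 3 for 6 and liver 4 for 1. Livers 9, 10 and 11 exceeded all AAV-NC livers for each of the 18, against 17 for liver 4, 15 for liver 3 and 11 for liver 5. Livers 3 and 5 were also those of the AAV-TuD group with most *Mup* reads, and the part of this in their lower values was not tested.

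Of 12 listed pairs of related genes, 6 had both genes in the table and were tested for unequal change through the log2 ratio of the 2 genes within each liver, by a two-sided exact permutation test over the splits of the 11 livers, with Benjamini-Hochberg adjustment over the 6. The ratio of *Plod1* to *Plod2* differed by -1.27 between AAV-TuD and AAV-NC, from 4.82 ± 0.95 to 3.55 ± 0.38 (mean ± SD, n = 5 and 6). It is given as a description, because *Plod2* had only 1 AAV-NC liver above 10 reads and passed the filter through the AAV-TuD livers. *Nid1* over *Nid2* moved from 2.76 ± 0.18 to 3.47 ± 0.53, a difference of 0.71 (exact permutation p = 0.0173, adjusted p = 0.0346). Both differences kept their direction without any single liver. With a liver left out, the exact permutation adjusted p value of *Nid1* over *Nid2* was under 0.05 only without AAV-TuD liver 5 (up to 0.0857 otherwise). *Mmp2* over *Timp2* went from -4.79 ± 0.60 to -3.97 ± 0.26, which is also given only as a description, because *Mmp2* entered the table of tested genes through the AAV-TuD livers. The p values of *Plod1* over *Plod2* and *Mmp2* over *Timp2* were still counted in the adjustment over the 6 pairs. The adjusted value of *Nid1* over *Nid2* rests partly on them and is not read as a call. The pairs, like the genes, were listed with earlier results known. *Lamb1* and *Lamb2* changed with a difference of -0.03 (exact permutation adjusted p = 0.939), *P4ha1* and *P4ha2* with -0.02 and *Fn1* and *Vtn* with -0.05 (adjusted p = 0.939 for each), and a p value of this size does not show equal change.

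Promoters were compared between the higher genes, a set chosen by these same values, and the other genes of the list. RefSeq (GRCm38.p6) promoters, windows of 300 bases that end shortly after the start of a gene, were found for 28 of the 39 genes (31 promoters), 12 of them higher (13 promoters). GGGCGG, the GC box that SP1 binds, was present on either strand in 23 of the 31 (74.2%), against 35.7% of all 32851 promoters. That background was not limited to genes tested in these livers, unlike the one used for the UTRs. It was in 11 of the 13 promoters of higher genes (84.6%) and in 12 of the 18 of the other genes (66.7%), so it was common in both. CCAAT was in 8 of the 31 (25.8%, against 37.4% of all), 4 of the 13 and 4 of the 18. TATAAA was in 6 of the 31 (19.4%, against 13.6%), 0 of the 13 and 6 of the 18. TGANTCA, the AP-1 motif, was in 1 of the 31 (3.20%, against 7.81%), and GGAATG, the TEAD motif, in 3 (9.70%, against 14.7%). The promoters of the higher genes *Itih5*, *Bgn* and *Timp2*, each with over 50 reads on average, are shown 5′ to 3′ on the strand of the gene, with GGGCGG and CCAAT on either strand in capitals. In *Bgn* a pair of GC boxes overlap.
*Itih5*, chr2:10153293-10153592, + strand: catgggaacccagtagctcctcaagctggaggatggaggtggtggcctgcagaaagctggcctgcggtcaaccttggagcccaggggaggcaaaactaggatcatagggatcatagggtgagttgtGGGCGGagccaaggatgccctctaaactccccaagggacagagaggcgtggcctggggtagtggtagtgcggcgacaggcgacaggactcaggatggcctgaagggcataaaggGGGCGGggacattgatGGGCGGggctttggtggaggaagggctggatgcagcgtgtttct
*Bgn*, chrX:73483351-73483650, + strand: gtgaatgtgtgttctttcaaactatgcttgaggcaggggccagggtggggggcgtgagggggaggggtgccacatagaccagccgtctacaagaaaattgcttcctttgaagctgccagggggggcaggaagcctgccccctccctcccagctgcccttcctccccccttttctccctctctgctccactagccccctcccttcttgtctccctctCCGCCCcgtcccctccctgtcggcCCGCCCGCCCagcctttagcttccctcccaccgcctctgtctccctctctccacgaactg
*Timp2*, chr11:118355362-118355661, - strand: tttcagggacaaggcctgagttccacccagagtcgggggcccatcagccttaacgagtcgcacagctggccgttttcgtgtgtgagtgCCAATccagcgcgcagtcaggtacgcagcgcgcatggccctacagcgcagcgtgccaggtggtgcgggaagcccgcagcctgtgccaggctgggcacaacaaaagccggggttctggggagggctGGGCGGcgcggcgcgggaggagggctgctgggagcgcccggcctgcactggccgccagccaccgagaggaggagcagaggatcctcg
A motif in these letters is no evidence of a factor on the promoter.

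**Figure D4:**
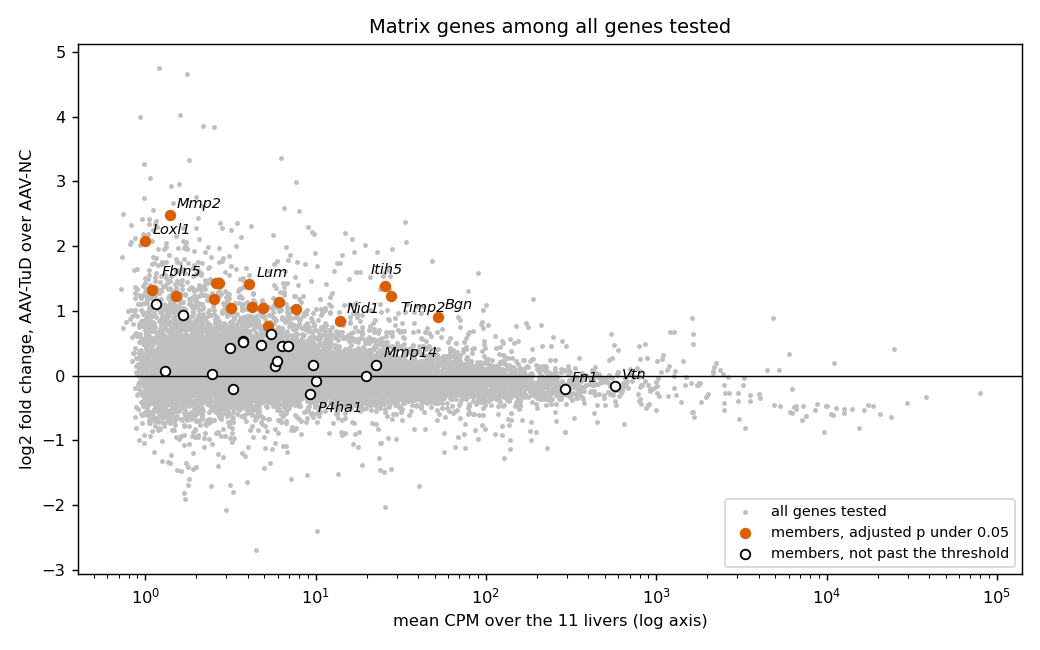
The log2 fold change (y axis, AAV-TuD over AAV-NC) is plotted against the mean CPM over the 11 livers (x axis, log scale) for all genes tested (grey), the 18 higher genes (orange) and the 21 others (white). *Bgn*, *Itih5*, *Timp2* and *Nid1* stand to the right of the other higher genes, *Mmp2* and *Loxl1* at the left end, and *Fn1* and *Vtn* far to the right just below 0.

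Of 191 other matrix genes, listed from general knowledge, 86 were tested. Of these, 24 were higher (27.9%, against 7.24% of all genes tested) and 5 lower (5.81%, against 4.33%, a share near the background), with a median log2 fold change of 0.34. The lower count was 1 without AAV-NC liver 8, 2 without AAV-NC liver 1, AAV-TuD liver 4 or AAV-TuD liver 10, and 3 without AAV-NC liver 2, AAV-NC liver 7 or AAV-TuD liver 9. The 3 higher genes with the smallest p values were *Spp1* (osteopontin), *Dcn* (decorin) and *Sparc* (osteonectin), with log2 fold changes of 2.20 ± 0.25, 0.79 ± 0.10 and 0.90 ± 0.11 (SE). *Dcn* went from 150 ± 21.7 to 259 ± 23.4 CPM. The 3 lower genes with the smallest p values were *Itih4* and *Itih3*, plasma relatives of *Itih5* made by hepatocytes, and *Sdc2*, a cell surface proteoglycan. Their log2 fold changes were -0.37 ± 0.10, -0.35 ± 0.10 and -0.28 ± 0.07 (SE), at adjusted p values of 0.0212, 0.0322 and 0.0214. *Itih4* went from 276 ± 22.3 to 214 ± 31.5 CPM and *Itih3* from 305 ± 37.6 to 240 ± 29.9 CPM (mean ± SD), opposite to *Itih5*. Of the 24 higher genes, 15 had risen by 1 or more on the log2 scale. *Mmp12* and *Htra3* are in both counts but passed the filter through the AAV-TuD livers. Their means were 0.0867 and 0.482 CPM with AAV-NC, against 1.64 and 1.73 CPM with AAV-TuD. How many others of the 24 entered in this way was not counted. No other matrix gene was called lower when library size alone set the scale. Under that scaling the lower calls among all 13334 genes tested also dropped, from 577 to 71.

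Markers of several liver cell types rose. The shares called were larger for cholangiocytes and for Kupffer cells and macrophages than for stellate cells or portal fibroblasts. Of 14 hepatic stellate cell markers tested, which do not include *Acta2*, 6 rose (42.9%) and none fell. Among all genes tested 7.24% were higher and 4.33% lower. Their summed level was 260 to 346 CPM in the AAV-NC livers and 406 to 537 CPM in the AAV-TuD livers, without overlap. *Dcn*, itself a matrix gene, carried much of these sums (150 CPM on average with AAV-NC and 259 CPM with AAV-TuD), and sums without it were not taken. Of 9 portal fibroblast markers listed, 4 were tested, and *Thy1*, *Gli1*, *Entpd2*, *Pi16* and *Clec3b* were not. Of the 4 tested 2 rose, with sums of 15.8 to 33.0 and 28.5 to 46.8 CPM. All 5 cholangiocyte markers tested rose (22.5 to 47.5 and 52.7 to 88.3 CPM), *Spp1* among them, and 8 of 11 Kupffer cell and macrophage markers rose (127 to 189 and 143 to 407 CPM). Sinusoidal endothelial markers did not pass the test in any of 11 cases, with sums of 236 to 278 and 237 to 258 CPM and a median log2 fold change of -0.03. The same was true of the 7 other endothelial markers (38.3 to 42.7 and 39.7 to 49.0 CPM), and of the single smooth muscle (0.751 to 1.88 and 1.30 to 2.14 CPM) and mesothelial (1.13 to 2.04 and 0.850 to 2.22 CPM) markers in the table. None of 8 lymphocyte markers was tested. Hepatocyte markers were abundant, with 2 of 10 lower, none higher, a median log2 fold change of -0.16 and sums of 38467 to 44495 and 45636 to 51886 CPM. *Alb*, named after its values were seen, carried these sums (21096 CPM on average with AAV-NC and 28044 CPM with AAV-TuD), and the other 9 markers summed to 19022 to 21892 and 17505 to 20677 CPM, which overlap. In bulk liver, more cells of a type and more RNA per cell cannot be told apart, and the part of stellate cell, fibroblast, cholangiocyte or macrophage number in the rise of the matrix genes was not tested. Among genes tested, *Dcn*, *Ecm1* and *Reln* count both as stellate markers and as other matrix genes. So do *Dpt* and *Gas6* among portal fibroblast markers, *Spp1* among cholangiocyte markers and *Vwf* among other endothelial markers, so these lists are not independent. No gene of the main list is a marker here.

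**Figure D5:**
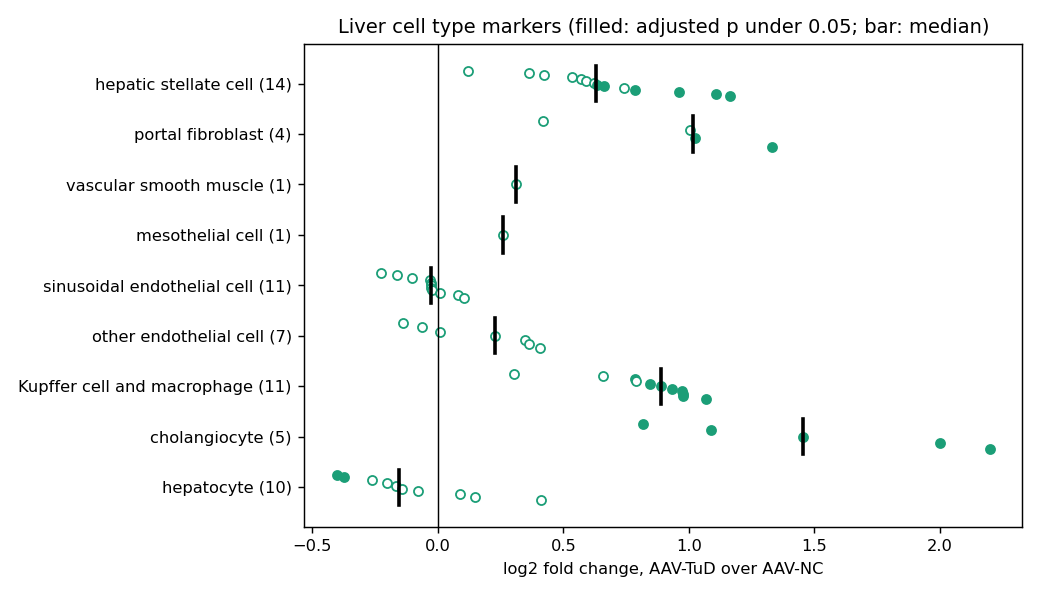
Each point is the log2 fold change (AAV-TuD over AAV-NC, x axis) of a marker gene of the cell type on the y axis, with the number tested in brackets, filled where the gene passed the threshold and with a bar at the median. The medians are 0.63 for stellate cells, 1.02 for portal fibroblasts, 0.89 for Kupffer cells and macrophages and 1.46 for cholangiocytes, against -0.03 for sinusoidal endothelium and -0.16 for hepatocytes.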

How the data were processed

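RNA libraries of 11 livers (5 AAV-NC, 6 AAV-TuD) were prepared from 500 ng RNA with a QuantSeq 3′ kit, which reads the 3′ end of polyadenylated transcripts, so length has little bearing on counts. The authors aligned reads to GRCm38 with STAR 2.5.3a and deposited raw counts per gene. The annotation and strand setting are not given in the sources used here. Every deposited gene had at least 10 reads in at least 5 livers. Counts were tested with edgeR 4.0.16 in R 4.3.3 (quasi-likelihood test, TMM, adjusted p under 0.05) on genes over 10 reads in 5 or more livers, and the test was checked on simulated counts. The submitters' notes name DESeq2 1.38.3. Alternatives were DESeq2 1.42.0, limma-voom (limma 3.58.1), other scalings and filters, removal of *Mup* genes or livers, and each liver left out. Stretches of transcripts alike were sought with BLAST 2.17.0.

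The genes, classes, marker lists and pairs were chosen with earlier results of these data known. Every gene is named. Values in every liver are given for the 3 genes with the smallest p value among those past the threshold in each class, and for *Fn1* and *Vtn*. Of the other matrix genes, the 3 with the smallest p value in each direction are named. *Ecm1*, *Reln*, *Alb*, *Acta2*, *Mmp12*, *Htra3*, *Dpt*, *Gas6*, *Vwf* and the portal fibroblast markers not tested are named apart from this rule.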

Additional observations from a re-analysis of the deposited data

Results flagged for a closer look

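In 6 of 78 groups of values (39 genes in 2 groups) 1 liver stood apart from the rest of its group by Dixon's criterion, where chance gives about 3.9 (1 in 20). The value given in brackets is the gap to the nearest liver as a share of the range of the group, both on the log2 CPM scale (prior count of 2), while levels are given in CPM. *Igfbp7* was lowest in AAV-TuD liver 10, at 2.85 CPM against 6.27 to 8.11 CPM in the others (0.75). *Lama2* in AAV-TuD liver 5 was at 0.425 CPM against 1.62 to 2.07 CPM (0.830). *Lamb2* in the same liver was at 2.87 CPM against 4.14 to 4.79 CPM (0.713), and *Lamc1* at 4.89 CPM against 6.95 to 8.18 CPM (0.682), so that 3 of the 6 concern laminin chains in 1 liver. *Lama4* was lowest in AAV-NC liver 7, at 3.76 CPM against 5.53 to 6.29 CPM (0.749). *Loxl2* was highest in AAV-TuD liver 9, at 7.12 CPM against 4.89 to 5.54 CPM (0.668). On the CPM scale itself 7 groups passed the same criterion, of which 5 were among these 6, with *Lama4* not among them. The other 2 were *Timp2*, highest in AAV-TuD liver 10 at 66.2 CPM against 27.6 to 38.7 CPM (0.712 of the range in CPM), and *Lum*, highest in AAV-NC liver 6 at 3.43 CPM against 1.51 to 2.03 CPM (0.730).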

How the results depend on the processing

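The number of genes of the list that were higher was 18 with DESeq2, with its size factors in edgeR, with no filter, with the filter of edgeR, with limma-voom and without *Mup* genes, 19 with upper-quartile factors, 23 with library size alone, 19 without the 3 *Mup*-rich livers and 15 where a log2 change of 1 or more was also asked for. None was lower under any of these. With library size alone, 1386 of all 13334 genes tested were higher and 71 lower, against 966 and 577 in the main fit. The number of genes of the list that were higher was 16 to 19 with each liver left out. It was 8 among genes whose mean was 50 reads or more, an alternative chosen after the data were seen that leaves fewer genes. Of other matrix genes, 19 to 26 were higher and 1 to 6 lower with each liver left out, 0 were lower with library size alone, and 15 higher and 0 lower with a log2 change of 1 or more. The cause of the changes in the lower count was not tested. Of the values of the 18 higher genes under the alternatives, 344 stayed past the threshold in the same direction and 16 fell short of it. Of those of the 21 other genes, 388 stayed, 13 passed the threshold and 19 changed sign without passing it. With library size alone the log2 fold change became 0.0279 for *Fn1*, 0.0616 for *Vtn*, 0.0598 for *P4ha2*, 0.23 for *Plod1* and 0.14 for *Plod3*. With limma-voom it became 0.0134 for *Plod1* and -0.0850 for *Mmp19*, and without the 3 *Mup*-rich livers 0.0441 for *Plod1*. With each liver left out it ranged from -0.0573 to 0.17 for *Nid2*, from -0.0674 to 0.0429 for *Plod1*, from -0.14 to 0.00395 for *Plod3* and from -0.18 to 0.16 for *Mmp19*. The pair differences then ranged from -0.18 to 0.12 for *P4ha1* over *P4ha2*, from -0.13 to 0.0746 for *Lamb1* over *Lamb2*, from -0.16 to 0.0496 for *Fn1* over *Vtn*, from -1.56 to -1.01 for *Plod1* over *Plod2*, from 0.55 to 0.85 for *Nid1* over *Nid2* and from 0.68 to 1.04 for *Mmp2* over *Timp2*. For *Nid1* over *Nid2* the exact permutation adjusted p value then rose to at most 0.0857, and it stayed under the threshold only without AAV-TuD liver 5. A set of 10 livers allows fewer splits than 11. No paired analysis was possible because no replicate number occurs in both groups. Genes with fewer than about 50 reads per liver carry large counting error, which limits the size of the change in *Mmp2*, *Loxl1*, *Plod2* and *Eln*.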
